A study of Mus musculus with 12 samples.

Results

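The genes described here are 42 genes of the amino acid response and the unfolded protein response in activated mouse CD4+ T cells. They comprise ATF4 and its regulatory targets, enzymes that make amino acids and one-carbon units, amino acid transporters, and factors that fold or remove proteins in the endoplasmic reticulum (ER). They were taken by gene symbol, and 41 of them were measured among the 19752 genes of the array. The expression of the remaining gene, Pycr1, a proline synthesis enzyme, is not analysed here.

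CD4+ T cells are the helper class of T lymphocytes, and IL-12, a cytokine released by dendritic cells and macrophages, directs them towards the Th1 type. The cells were taken from the spleen of male C57BL/6 mice at 6 weeks of age by EasySep negative selection, were activated for 48 h with CD3/CD28 beads, and were then profiled on 12 Affymetrix Mouse Gene 1.0 ST arrays. Culture with IL-12 at 100 U/ml lasted 2 h for 5 arrays and 8 h for 4 arrays. A further 2 arrays hold cells left untreated for 2 h, and 1 array carries the label baseline and gives no culture time. All groups share the strain, the sex and the activation, and there is no untreated group at 8 h, so IL-12 and longer culture cannot be told apart in any comparison with the 8 h arrays. Whether arrays of a group came from different mice or cultures is not stated, and the p-values below therefore speak only of the spread between arrays.

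The sample titles carry numbers, and no label says what they stand for. IL-12 was given at both times in a run of arrays numbered 2 to 4 and in a run numbered 5 and 6, whereas the untreated arrays are numbered 7 and 8 and the baseline array 5. Arrays 2 to 4 and arrays 5 to 8 stood apart across the whole array, with 4795 of 19752 genes (24.3%) differing between the IL-12 arrays of each run at an adjusted p under 0.05. Values within each run are therefore given for the genes described in detail.

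ATF4 is the transcription factor of the integrated stress response. When amino acids run short or unfolded proteins gather in the ER, kinases phosphorylate the initiation factor eIF2, most translation slows, and Atf4 mRNA is translated more. ATF4, often paired with a C/EBP factor, then turns on genes for amino acid uptake and synthesis along with feedback genes. The other branches of the unfolded protein response act through XBP1 and ATF6 and raise ER chaperones and degradation factors. Activated T cells take up large amounts of amino acids and draw on serine and one-carbon metabolism as they grow. Because ATF4 is controlled largely at translation, an array reads the level of Atf4 mRNA and not the activity of the protein.

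RefSeq promoter windows, from 250 bases before to 50 after the annotated start on GRCm38.p6, were found for 35 of the 42 genes, which have 40 windows. A C/EBP-ATF response element, searched as TGATGNAAN on both strands, was present in 9 of the 35 genes, against 3.95% of all 32851 windows. These were Asns, Chac1, Trib3, Slc7a11, Slc1a4, Nupr1, Vldlr, Herpud1 and Pycr1. An ER stress response element, searched as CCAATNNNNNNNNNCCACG on both strands, was present in 5, namely Hspa5, Hsp90b1, Pdia6, Calr and Creld2, against 0.119% of all windows. These counts are of genes and the shares are of windows. The set was chosen as ATF4 targets and unfolded protein response genes, so its matches are no independent finding. A match describes the letters and is not evidence of binding. The stretches below are shown because these genes carry the patterns described later, the first 4 for genes that differed between the runs of arrays and the last 3 for chaperones. The match is in capitals, each is written 5′ to 3′ on the strand of the gene, and the match of Slc1a4 spans its annotated start. They lie at chr6:7693210-7693262 (minus strand) for Asns, chr2:119351018-119351086 (plus) for Chac1, chr11:20332710-20332748 (minus) for Slc1a4, chr7:126625543-126625611 (minus) for Nupr1, chr12:17266461-17266539 (plus) for Pdia6, chr10:86705503-86705686 (minus) for Hsp90b1 and chr8:84847045-84847123 (minus) for Calr.
Asns: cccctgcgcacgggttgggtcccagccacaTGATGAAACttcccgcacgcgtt
Chac1: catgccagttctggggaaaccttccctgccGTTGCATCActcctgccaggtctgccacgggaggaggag
Slc1a4: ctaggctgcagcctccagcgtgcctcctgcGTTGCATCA
Nupr1: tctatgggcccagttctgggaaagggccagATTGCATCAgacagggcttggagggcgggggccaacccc
Pdia6: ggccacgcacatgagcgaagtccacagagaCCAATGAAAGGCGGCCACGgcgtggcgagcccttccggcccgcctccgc
Hsp90b1: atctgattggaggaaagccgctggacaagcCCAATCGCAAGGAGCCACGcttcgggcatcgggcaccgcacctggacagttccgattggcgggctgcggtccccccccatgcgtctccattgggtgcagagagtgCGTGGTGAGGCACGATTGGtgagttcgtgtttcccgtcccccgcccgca
Calr: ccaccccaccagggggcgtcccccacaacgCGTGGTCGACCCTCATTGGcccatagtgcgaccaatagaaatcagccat

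The samples carried helper T cell genes: 6 of 7 measured CD4 T cell markers lay above the 75th percentile of all genes, and Cd4 ranged from 11.51 to 12.07 in log2 intensity. Of these 7 markers, Cd3e, Cd3g and Trat1 were lower on arrays 2 to 4 and Cd3d higher. Genes on the marker lists of other cells differed between the runs too, and some were bright, with Prdm1 reaching 10.14, Ppbp 10.02 and Lyz2 9.93. The mean log2 intensity of 13 macrophage and monocyte markers, 8 of them dimmer than the median gene, was 7.05 to 7.31 on the arrays with IL-12 or no cytokine numbered 5 to 8 and 6.68 to 6.81 on arrays 2 to 4. For 7 B cell markers it was 7.18 to 7.35 against 7.36 to 7.61, for 7 plasma cell markers 6.77 to 6.86 against 7.02 to 7.05, and for 5 erythroid and platelet markers 6.89 to 7.17 against 7.33 to 7.85. Of the plasma cell markers only Prdm1 (log2 difference of 1.01) and Mzb1 (0.48) passed an adjusted p of 0.05 in limma, both higher on arrays 2 to 4. Derl3 differed the other way (-0.25) and did not pass. The baseline array, although numbered 5, read 6.89, 7.62, 7.09 and 8.23 for these lists, and its level was nearer the 2 h arrays 2 to 4 than arrays 5 to 8 at 32 of the 41 genes described here (78.0%; 58.6% of all genes). The part of these other cells in the results below was not tested. In bulk samples such as these, fewer cells of a type and less RNA per cell cannot be told apart.

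No shift of this set of genes from untreated cells was resolved within 2 h of IL-12. At that time 0 of 41 genes passed the adjusted p of 0.05 in limma, against 14 of 19752 genes (0.0709%), all higher. Only Nupr1, a stress-induced chromatin protein, had an unadjusted p under 0.05, with a log2 change of 0.50 ± 0.17 (SE; adjusted p = 0.863). The median log2 change over the 41 genes was 0.06, and over all genes it was -0.00. Among arrays 5 to 8 alone, with a separate mean for each group and run, the count was again 0 (0.101% of all genes, all higher), with 1 gene at an unadjusted p under 0.05, and the log2 changes ran from -0.14 for Phgdh to 0.29 for Nupr1.

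Atf4 itself gave nearly equal values in both groups. Its log2 intensity was 9.43 and 9.40 on untreated arrays 7 and 8, and 9.41 and 9.39 on the IL-12 2 h arrays 5 and 6. On the 2 h arrays 2 to 4 it was 9.38, 9.39 and 9.41, so that all 7 arrays at this time overlapped. At 8 h it was 9.51 and 9.17 on arrays 5 and 6, and 8.97 and 9.07 on arrays 2 and 3, while the baseline array read 9.21. Atf4 mRNA was thus lower at 8 h than at 2 h on both arrays of the run 2 to 4, with a change of -0.37 ± 0.09 (SE; limma adjusted p = 0.017), and in the run 5 and 6 the values at the different times overlapped. The fit over both runs did not call it (-0.23 ± 0.08; limma adjusted p = 0.078), nor was the interaction of time and run called (-0.32 ± 0.14; adjusted p = 0.316), so a difference between the runs was not shown for Atf4.

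**Figure D1:**
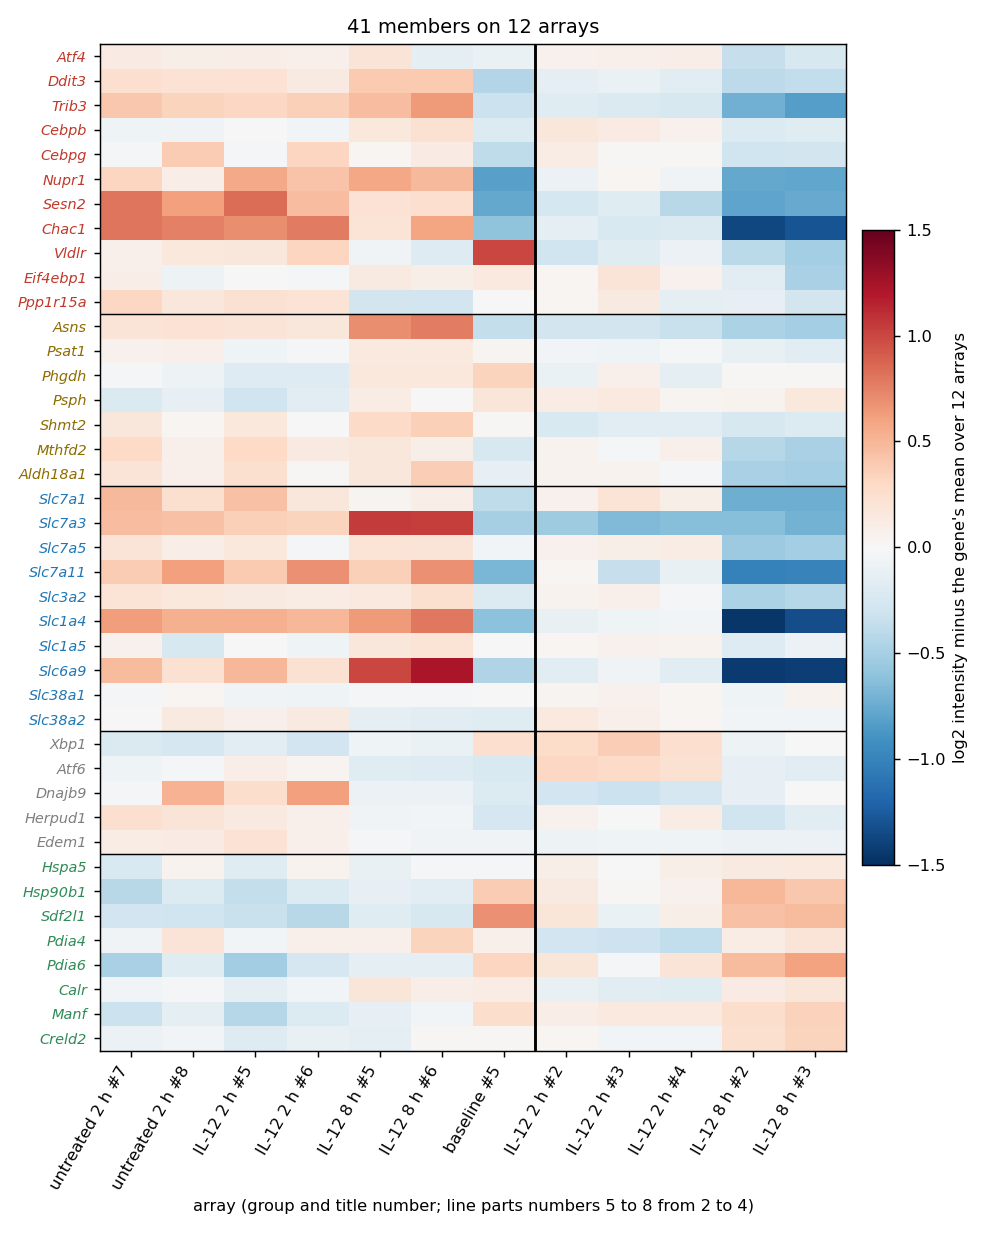
Log2 intensity of the 41 genes on each of the 12 arrays, as the difference from the mean of that gene over all arrays (colour scale from -1.5 to 1.5). Rows are ordered by role, as the label colours show (regulators, synthesis, transporters, unfolded protein response factors, chaperones), and the thick line parts arrays 5 to 8 from arrays 2 to 4. Slc6a9, Slc1a4, Chac1 and Slc7a11 are high across the arrays with IL-12 or no cytokine numbered 5 to 8 and lowest on the 8 h arrays 2 and 3. Hsp90b1, Sdf2l1 and Pdia6 run the other way, except that Sdf2l1 is highest on the baseline array (11.47).

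Most ER chaperone genes of the set were higher after 8 h of IL-12 than after 2 h. Of the 8 chaperone and folding genes, 7 rose: Calr, Pdia4, Sdf2l1, Pdia6, Hsp90b1, Creld2 and Manf, with log2 changes of 0.20 to 0.34. The share of all genes that rose was 6.27%, and the median log2 change of the 8 genes was 0.27, against -0.01 over all genes. In 6 of the 8, every 8 h array lay above every 2 h array within both runs (8.83% of all genes). The interaction of time and run was called for 0 of the 8 in limma, against 1.96% of all genes. Of the 8, 0 had an unadjusted p under 0.05 (smallest limma adjusted p = 0.346), so no difference in this rise between the runs was resolved. Dnajb9, an ER co-chaperone, was counted with the unfolded protein response factors and not among the 8. Its 8 h minus 2 h difference was -0.52 in the run 5 and 6 and 0.23 in the run 2 to 4. For it the interaction was called (0.75 ± 0.14 SE, limma adjusted p = 0.018). A fit with the title number as a replicate block used only the IL-12 arrays 2, 3, 5 and 6. In it Pdia4 and Pdia6 alone of the 8 were called, beside 1246 of all genes. The limma adjusted p of the others that rose then lay between 0.053 (Calr) and 0.171 (Creld2). With a separate mean for each group and run, 6 of 8 were called higher in the run 2 to 4, against 6.05% of all genes. In the run 5 and 6, 0 of 8 were called, against 2.03% of all genes called higher, and 7 of 8 differences were above 0. The smallest differences in the run 5 and 6 were -0.00 for Hspa5 and 0.10 for Creld2, and in the run 2 to 4 they were 0.08 for Hspa5 and 0.18 for Manf.

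Calr encodes calreticulin, a calcium-binding chaperone for glycoproteins. Its log2 intensity was 12.60 and 12.69 at 2 h and 12.92 and 12.83 at 8 h on arrays 5 and 6, and 12.62, 12.57 and 12.55 at 2 h and 12.86 and 12.92 at 8 h in the other run. Untreated arrays read 12.69 and 12.72 and the baseline array 12.85. All 4 arrays at 8 h were above all 5 at 2 h, a log2 change of 0.28 ± 0.05 (SE; limma adjusted p = 0.00362), and the call held when any 1 array was left out, but not with the replicate block (0.27; adjusted p = 0.053).

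Pdia4, a protein disulphide isomerase, read 11.53 and 11.64 at 2 h and 11.65 and 11.90 at 8 h on arrays 5 and 6, with 11.52 and 11.76 on the untreated arrays and 11.65 at baseline. On the arrays of the other run it went from 11.28, 11.26 and 11.20 to 11.68 and 11.76. The fitted change was 0.34 ± 0.08 (SE; limma adjusted p = 0.00991). In the run 5 and 6 the 8 h arrays lay only just above those at 2 h, and the untreated arrays overlapped with both.

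Hsp90b1, which encodes the ER form of HSP90, read 11.68 and 11.83 at 2 h and 11.92 and 11.87 at 8 h on arrays 5 and 6, against 12.17, 12.06 and 12.10 and then 12.54 and 12.44 in the other run. Untreated arrays read 11.63 and 11.83 and the baseline array 12.42. Sdf2l1, a partner of the chaperone machinery, gave 10.45 and 10.37 and then 10.60 and 10.54 on arrays 5 and 6, and 10.96, 10.68 and 10.87 and then 11.22 and 11.26 in the other run. For Sdf2l1 the untreated arrays read 10.50 and 10.48 and the baseline array 11.47, the highest value of the 12 arrays. Both genes thus rose with time and also stood higher on arrays 2 to 4 at either time.

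Hspa5, which encodes BiP, the main ER chaperone and sensor of unfolded protein, did not pass the test. It read 12.02 and 12.25 at 2 h and 12.09 and 12.18 at 8 h on arrays 5 and 6, and 12.29, 12.19 and 12.29 against 12.33 and 12.35 in the other run. Untreated arrays read 11.97 and 12.25 and the baseline array 12.18. Its fitted change was 0.04 ± 0.07 (SE; limma adjusted p = 0.787). The genes for folding factors outside the chosen set gave 5 higher and 0 lower of 15 measured, against 6.27% and 6.36% of all genes. They were led by Hyou1, an ER chaperone of the HSP70 class, with 0.41 ± 0.07 (SE; limma adjusted p = 0.0012) and nearly the same difference in each run (0.40 and 0.42).

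Some regulators, transporters and sensors fell between 2 h and 8 h. Across all 41 genes, 11 fell besides the 7 that rose, against 6.36% of all genes that fell: Atf6, Chac1, Sesn2, Slc7a1, Vldlr, Ppp1r15a, Herpud1, Mthfd2, Slc38a2, Slc7a11 and Nupr1. By role, 5 of 11 regulators and feedback genes fell, 1 of 7 synthesis enzymes, 3 of 10 transporters and 2 of 5 unfolded protein response factors. In 8 genes the 8 h arrays lay below the 2 h arrays in both runs (8.75% of all genes): Sesn2, Chac1, Vldlr, Slc7a1, Slc38a2, Atf6, Herpud1 and Edem1.

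Atf6, the membrane-bound sensor that moves to the nucleus when cleaved, had the smallest p of these. It read 9.84 and 9.78 at 2 h and 9.56 and 9.54 at 8 h on arrays 5 and 6, and 10.05, 10.02 and 9.96 and then 9.61 and 9.58 in the other run. Untreated arrays read 9.67 and 9.72 and the baseline array 9.51. Its change was -0.35 ± 0.06 (SE; limma adjusted p = 0.000915), with differences of -0.26 and -0.42 in the runs 5 and 6 and 2 to 4.

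Sesn2, a feedback gene that restrains mTORC1, read 10.86 and 10.48 at 2 h and 10.24 and 10.27 at 8 h on arrays 5 and 6, and 9.76, 9.84 and 9.60 and then 9.23 and 9.26 in the other run. Untreated arrays read 10.83 and 10.64 and the baseline array 9.25. The fitted change was -0.46 ± 0.08 (SE; limma adjusted p = 0.00189) and the differences within the runs were -0.41 and -0.49. Time and run therefore both separated the arrays of this gene, with no overlap between the IL-12 arrays of the runs.

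Ppp1r15a encodes GADD34, which helps to remove the phosphate from eIF2 and so ends the translational block. Its log2 intensity was 8.37 and 8.35 at 2 h and 7.86 on both 8 h arrays of the run 5 and 6, against 8.45 and 8.31 untreated and 8.14 at baseline. In the run 2 to 4 it was 8.17, 8.27 and 8.01 at 2 h and 8.02 and 7.87 at 8 h, and there the times overlapped. The fitted fall was -0.34 ± 0.08 (SE; limma adjusted p = 0.00869).

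Vldlr, a lipoprotein receptor induced by ATF4, read 6.81 and 6.96 at 2 h and 6.58 and 6.44 at 8 h on arrays 5 and 6, and 6.34, 6.45 and 6.55 and then 6.23 and 6.12 in the other run. Untreated arrays read 6.71 and 6.79. The baseline array, at 7.64, was the highest of all 12. Every other array of Vldlr lay below the median of 7.369 over all genes and arrays. The change of Vldlr from 2 h to 8 h was -0.32 ± 0.06 (SE; limma adjusted p = 0.00513).

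For part of the set this average over the runs joined unequal changes. The interaction of time and run was called for 15 of 41 genes, against 1.96% of all genes, and in 14 of them the 8 h minus 2 h change was lower in arrays 2 to 4 than in arrays 5 and 6. These were 7 of 10 transporters (Slc6a9, Slc1a4, Slc7a3, Slc7a5, Slc3a2, Slc7a1 and Slc7a11), 5 of 11 regulators (Nupr1, Trib3, Chac1, Cebpb and Ddit3) and 2 of 7 synthesis enzymes (Asns and Aldh18a1). The share of all genes called in this direction was 0.987%. The exception was Dnajb9, an ER co-chaperone, whose difference between the runs was 0.75 ± 0.14 (SE; limma adjusted p = 0.018) the other way. In 12 genes the 8 h arrays lay above the 2 h arrays in the run 5 and 6 and below them in the run 2 to 4, an order seen for 2.45% of all genes. The opposite order was seen for 1 gene, Dnajb9 (2.28% of all genes).

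Within the run 5 and 6 alone, 4 of the 41 genes rose between 2 h and 8 h and 2 fell, against 2.03% and 3.58% of all genes (5.61% in either direction). Those that rose were Asns, Phgdh, Slc6a9 and Slc7a3, and those that fell were Ppp1r15a and Vldlr. Within the run 2 to 4, 6 rose and 19 fell, against 6.05% and 5.67% of all genes (11.7%). All 6 that rose were chaperones, and the 19 that fell included Atf4 itself, 6 of 10 transporters, Ddit3, Trib3 and Xbp1. By order alone, the 8 h arrays lay above the 2 h arrays at 23 genes in the run 5 and 6 (21.9% of all genes) and below at 10 (20.5%). In the run 2 to 4 they lay above at 9 (21.6%) and below at 26 (22.1%).

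**Figure D2:**
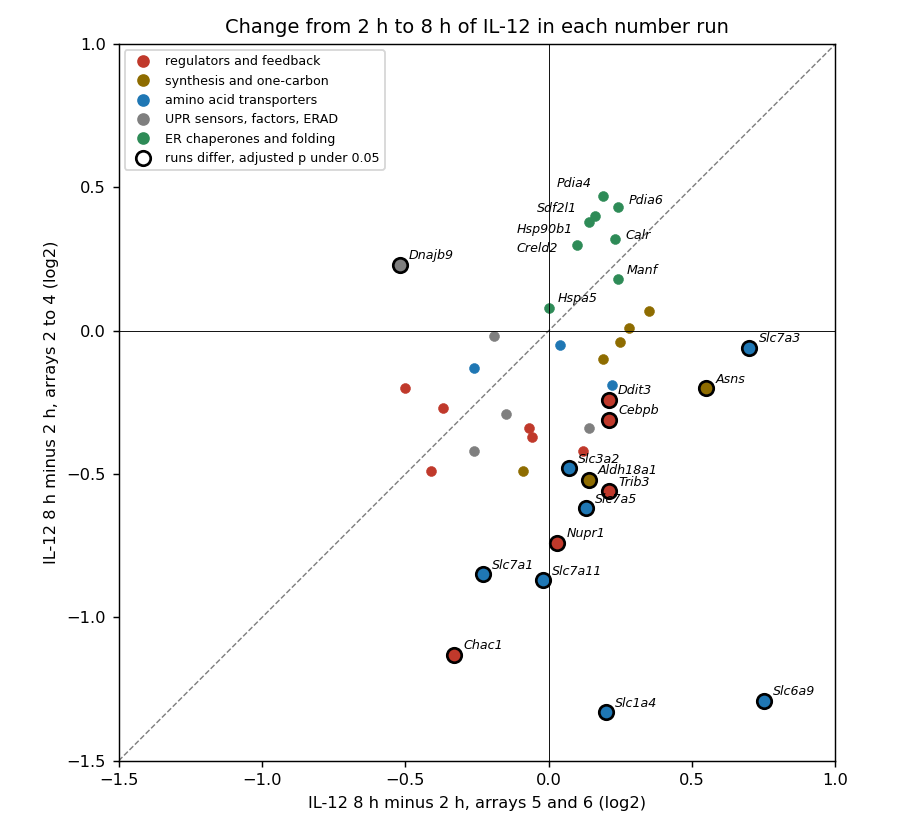
Difference in mean log2 intensity between IL-12 8 h and 2 h in arrays 5 and 6 (horizontal) and in arrays 2 to 4 (vertical), 1 point per gene, coloured by role. The dashed line marks equal change, and black rings mark the 15 genes whose change differed between the runs at an adjusted p under 0.05. Genes in the chaperone role, which leaves out Dnajb9, lie near or above 0 on both axes. Slc6a9 (0.75 and -1.29) and Slc1a4 (0.20 and -1.33) lie far below the line.

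Slc6a9, which encodes the glycine transporter GLYT1, showed the widest gap. On arrays 5 and 6 it read 9.92 and 9.65 at 2 h and 10.42 and 10.65 at 8 h, beside 9.90 and 9.65 untreated and 8.97 at baseline. On arrays 2 to 4 it read 9.26, 9.37 and 9.25 at 2 h and 7.99 and 8.01 at 8 h. It was thus higher at 8 h in one run, by 0.75 ± 0.11 (SE; limma adjusted p = 0.00191), and lower in the other, by 1.29 on the log2 scale (-1.29 ± 0.10; adjusted p = 3.55e-06). The difference between the changes was -2.04 ± 0.14 (SE; limma adjusted p = 5.94e-05).

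Slc1a4, the neutral amino acid transporter ASCT1, read 9.13 and 9.10 at 2 h and 9.24 and 9.39 at 8 h on arrays 5 and 6, with 9.23 and 9.13 untreated and 7.98 at baseline. In the other run it went from 8.49, 8.54 and 8.56 to 7.14 and 7.27, a change of -1.33 ± 0.08 (SE; limma adjusted p = 1.58e-07). The 2 arrays at 8 h in this run lay below every other array. The difference between the runs in the change was -1.53 ± 0.11 (SE; limma adjusted p = 5.94e-05).

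Asns, the asparagine synthetase and a textbook ATF4 target, read 11.93 and 11.91 at 2 h and 12.43 and 12.51 at 8 h on arrays 5 and 6, and 11.93 and 11.95 on the untreated arrays. In the run 2 to 4 it was 11.46, 11.46 and 11.41 at 2 h and 11.26 and 11.23 at 8 h, and the baseline array read 11.38. It rose by 0.55 ± 0.07 (SE; limma adjusted p = 0.000735) within the first of these runs, whereas in the second the difference was -0.20 ± 0.07 and did not pass (adjusted p = 0.082). The difference between the changes was -0.75 ± 0.10 (adjusted p = 0.00272).

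Slc7a3, a carrier of cationic amino acids, behaved much like Asns on arrays 5 and 6, with 8.42 and 8.39 at 2 h and 9.11 and 9.09 at 8 h, beside 8.52 and 8.50 untreated and 7.56 at baseline. It was low on arrays 2 to 4 at both times, with 7.52, 7.40 and 7.42 at 2 h and 7.42 and 7.35 at 8 h. These values lie near the median of 7.369 over all genes and arrays. Its rise within the run 5 and 6 was 0.70 ± 0.08 (SE; limma adjusted p = 0.000177). Phgdh, the first enzyme of serine synthesis, was the remaining gene that rose within that run, by 0.35 ± 0.08 (SE; limma adjusted p = 0.0275).

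Trib3, a pseudokinase that feeds back on ATF4, read 8.82 and 8.87 at 2 h and 8.97 and 9.15 at 8 h on arrays 5 and 6, against 8.33, 8.30 and 8.27 and then 7.79 and 7.69 in the other run. Untreated arrays read 8.92 and 8.85 and the baseline array 8.19. Ddit3, which encodes the stress factor CHOP, read 8.96 and 8.87 and then 9.13 and 9.13 on arrays 5 and 6, and 8.59, 8.64 and 8.58 and then 8.35 and 8.37 on the others. For Ddit3 the untreated arrays gave 8.99 and 8.95 and the baseline array 8.30. In both genes the 8 h values were the highest of one run and the lowest of the other. The change differed between the runs by -0.77 ± 0.12 for Trib3 (SE; limma adjusted p = 0.00486) and by -0.45 ± 0.10 for Ddit3 (adjusted p = 0.0473).

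Chac1, an enzyme that degrades glutathione, read 10.02 and 10.10 at 2 h and 9.53 and 9.92 at 8 h on arrays 5 and 6, and 10.13 and 10.08 on the untreated arrays. In the other run it was 9.18, 9.09 and 9.11 at 2 h and 7.96 and 8.03 at 8 h, and 8.72 on the baseline array. It was lower at 8 h in both runs, by 0.33 and 1.13 on the log2 scale (differences of -0.33 and -1.13), and the fitted change was -0.77 ± 0.13 (SE; limma adjusted p = 0.00132). The difference between the runs was -0.80 ± 0.15 (SE; limma adjusted p = 0.0174).

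Nupr1 read 8.39 and 8.25 at 2 h and 8.40 and 8.31 at 8 h on arrays 5 and 6, with 8.15 and 7.92 untreated and 7.01 at baseline. On arrays 2 to 4 it read 7.74, 7.86 and 7.77 and then 7.06 and 7.04. The fall called for the average of the runs, -0.39 ± 0.12 (SE; limma adjusted p = 0.0498), was a fall in the run 2 to 4, of -0.74 ± 0.09 (adjusted p = 7.5e-05), beside a difference of 0.03 in the run 5 and 6.

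Among the other transporters with an interaction, Slc7a5, the light chain of the leucine transporter LAT1, read 12.58 and 12.40 and then 12.62 and 12.61 on arrays 5 and 6, and 12.48, 12.51 and 12.53 and then 11.87 and 11.91 on the others. The untreated arrays read 12.61 and 12.52 and the baseline array 12.38. Only the 8 h arrays 2 and 3 stood apart, and its difference between the runs was -0.74 ± 0.11 (SE; limma adjusted p = 0.00475).

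Slc7a1, the cationic amino acid transporter CAT1, read 11.37 and 11.10 and then 10.97 and 11.03 on arrays 5 and 6, and 10.99, 11.13 and 11.02 and then 10.19 and 10.20 on the others. Untreated arrays read 11.41 and 11.17 and the baseline array 10.54. Its fitted change was -0.57 ± 0.11 (SE; limma adjusted p = 0.00324), and it was lower at 8 h in both runs, with differences of -0.23 and -0.85.

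Slc7a11, the cystine and glutamate exchanger xCT, read 7.84 and 8.14 at 2 h and 7.81 and 8.14 at 8 h on arrays 5 and 6, where the times could not be told from each other. Untreated arrays read 7.83 and 8.07 and the baseline array 6.77. On arrays 2 to 4 it went from 7.48, 7.10 and 7.34 to 6.44 and 6.45, a fall of -0.87 ± 0.13 (SE; limma adjusted p = 0.000635).

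Xbp1, the factor activated by the IRE1 branch, read 11.99 and 11.86 and then 12.08 and 12.04 on arrays 5 and 6, and 12.42, 12.51 and 12.40 and then 12.07 and 12.14 on the others. Untreated arrays read 11.93 and 11.89 and the baseline array 12.39. The runs stood apart at 2 h and met at 8 h. The interaction narrowly missed the threshold, at -0.48 ± 0.11 (SE; limma adjusted p = 0.0502).

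**Figure D3:**
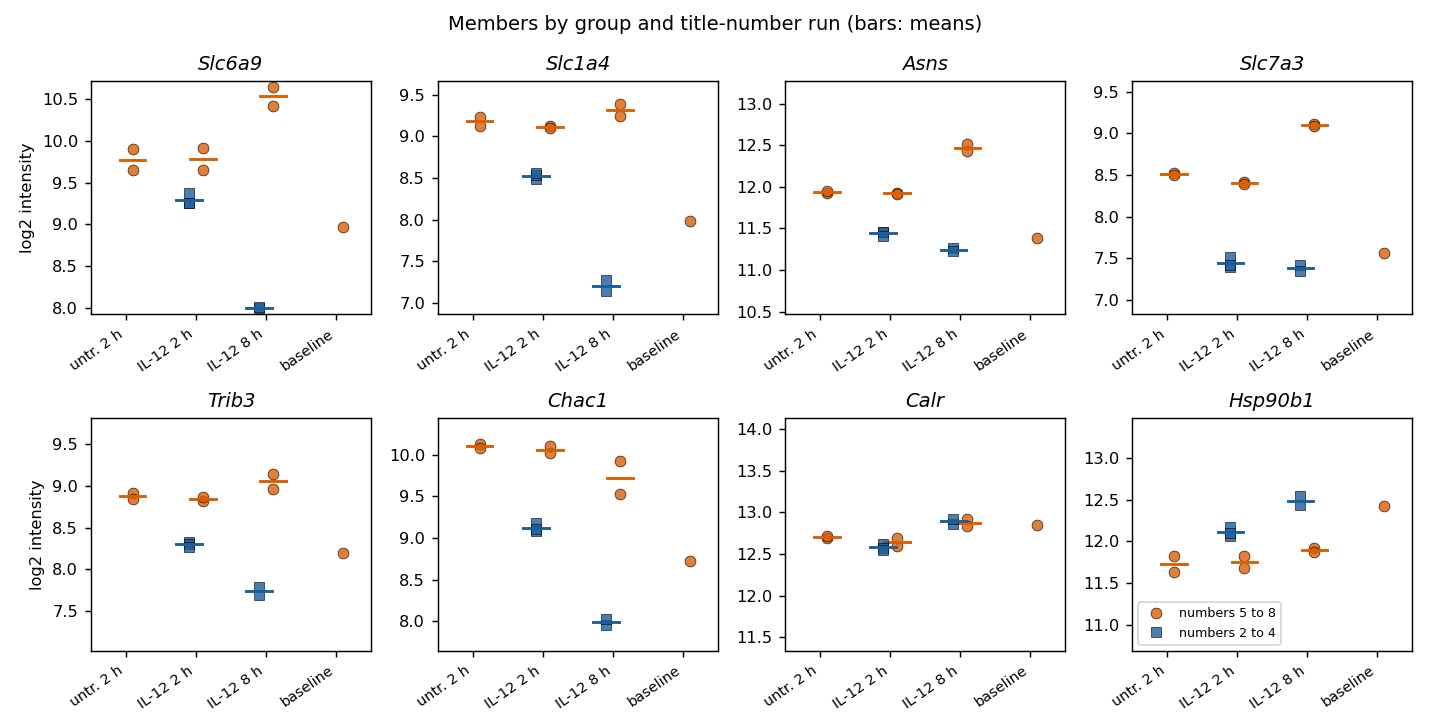
Log2 intensity of 8 genes on every array by group, with circles for arrays 5 to 8, squares for arrays 2 to 4, and bars at the mean where a group has more than 1 array in a run; each panel spans the same log2 range. In Slc6a9, Slc1a4, Asns, Slc7a3, Trib3 and Chac1 the runs lie farther apart at 8 h than at 2 h, while Calr is higher at 8 h in both, from values of 12.55 to 12.69 at 2 h to 12.83 to 12.92 at 8 h.

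The calls between 8 h and 2 h depended on how the runs were handled and on which arrays were used. With the title number as a replicate block, 7 of the 41 genes were called in place of 18. Over all genes 1246 were called in place of 2496. Of the 7, Pdia4 and Pdia6 were higher and Sesn2, Chac1, Ppp1r15a, Slc7a1 and Atf6 lower. Leaving out the 8 h array 2 or the 8 h array 3 left 9 or 8 calls, and 7 calls held when any 1 array was left out: Atf6, Calr, Chac1, Ppp1r15a, Sesn2, Slc7a1 and Vldlr. For the difference between the runs, 7 of the 15 calls held in the same way (Slc6a9, Slc1a4, Asns, Slc7a3, Nupr1, Slc7a5 and Trib3). Without the 2 h array 3, 9 of the 15 held. Leaving out the 8 h array 2, 3 or 6 leaves 1 array at 8 h in its run, and some of the 15 calls were lost there too.

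Compared with untreated cells at 2 h, IL-12 for 8 h gave few calls in the fit over both runs. There 0 of 41 genes were higher and 2 lower, against 1.04% and 2.13% of all genes (3.16% in either direction), namely Sesn2 at -0.50 ± 0.11 (SE; limma adjusted p = 0.0238) and Ppp1r15a at -0.44 ± 0.10 (adjusted p = 0.0336). No call remained without the 8 h array 5, the untreated array 7 or the untreated array 8, and Ppp1r15a alone was lost without the 8 h array 3 or 6 and without the 2 h array 2 or 3.

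That fit assumes 1 change for both runs, and untreated cells exist only among arrays 5 to 8. Set against the 8 h arrays 5 and 6 alone, with a separate mean for each group and run, 3 genes were higher and 2 lower, against 1.56% and 2.7% of all genes (4.26% in either direction). Slc6a9 was higher by 0.76 ± 0.11 (SE; limma adjusted p = 0.00158), Slc7a3 by 0.59 ± 0.08 (adjusted p = 0.000656) and Asns by 0.52 ± 0.07 (adjusted p = 0.00105). All arrays of these genes at 8 h in that run lay above both untreated arrays. That order was seen at 19 of the 41 genes and 18.9% of all genes. Ppp1r15a differed by -0.53 ± 0.10 (adjusted p = 0.00693) and Sesn2 by -0.48 ± 0.12 (adjusted p = 0.0399). Slc7a1, the other carrier of cationic amino acids named above, differed by -0.29 ± 0.10 and did not pass (adjusted p = 0.176). Both of its 8 h arrays lay below both untreated arrays, as at 10 of the 41 genes and 19.3% of all genes.

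Between the IL-12 arrays numbered 2 to 4 and those numbered 5 and 6, 16 of the 41 genes were lower on arrays 2 to 4 and 7 higher, against 12.5% and 11.8% of all genes. Lower were 6 of 11 regulators (Sesn2, Chac1, Trib3, Nupr1, Ddit3 and Vldlr), 4 of 7 synthesis enzymes (Asns, Shmt2, Mthfd2 and Aldh18a1) and 6 of 10 transporters (Slc7a3, Slc7a11, Slc1a4, Slc6a9, Slc7a1 and Slc3a2). Higher were 5 of 8 chaperones (Sdf2l1, Pdia6, Hsp90b1, Manf and Creld2), Xbp1, and Psph, the last enzyme of serine synthesis.

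The largest fitted differences were -1.42 ± 0.28 for Slc6a9 (SE; limma adjusted p = 0.00247), -1.30 ± 0.11 for Slc7a3 (adjusted p = 5.03e-06) and -1.29 ± 0.13 for Chac1 (adjusted p = 1.3e-05). Those folds are 2.68, 2.46 and 2.45. The largest rise was 0.58 ± 0.08 for Pdia6 (adjusted p = 0.000216). In 14 genes all IL-12 arrays 2 to 4 lay below all IL-12 arrays 5 and 6 (7.93% of all genes), and in 4, Hsp90b1, Sdf2l1, Pdia6 and Manf, they lay above (8.93%). The gap widened with time for Slc6a9, from -0.49 ± 0.10 at 2 h to -2.54 ± 0.11 at 8 h, and for Slc1a4, from -0.58 ± 0.08 to -2.11 ± 0.08. With a separate mean for each group and run, 6 genes were higher and 15 lower on arrays 2 to 4 at 2 h, against 9.14% and 11.5% of all genes (20.7% in either direction). Among the lower ones was the chaperone Pdia4, at -0.34 ± 0.09 (SE; limma adjusted p = 0.0233). At 8 h, 5 were higher, all chaperones, and 21 lower, against 5.03% and 6.5% of all genes (11.5%).

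Among the measured genes with a C/EBP-ATF element in the promoter window, Asns, Chac1, Trib3, Slc7a11, Slc1a4, Nupr1 and Vldlr were lower on arrays 2 to 4, and Herpud1, with a difference of -0.11 ± 0.06, was not called. Of the genes with an ER stress element, Hsp90b1, Pdia6 and Creld2 were higher, while Calr (-0.03 ± 0.05) and Hspa5 (0.16 ± 0.07) were not called. The lower genes included members with no match in the promoter window, such as Slc6a9 and Sesn2. Macrophage markers moved with this difference, 7 of 13 being lower on arrays 2 to 4, as did B cell markers, 4 of 7 being higher, and their part in it was not tested. When the mean of the macrophage markers, which itself separates the runs, was added as a covariate, 0 genes of the set and 1 of all genes were called between the runs.

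**Figure D4:**
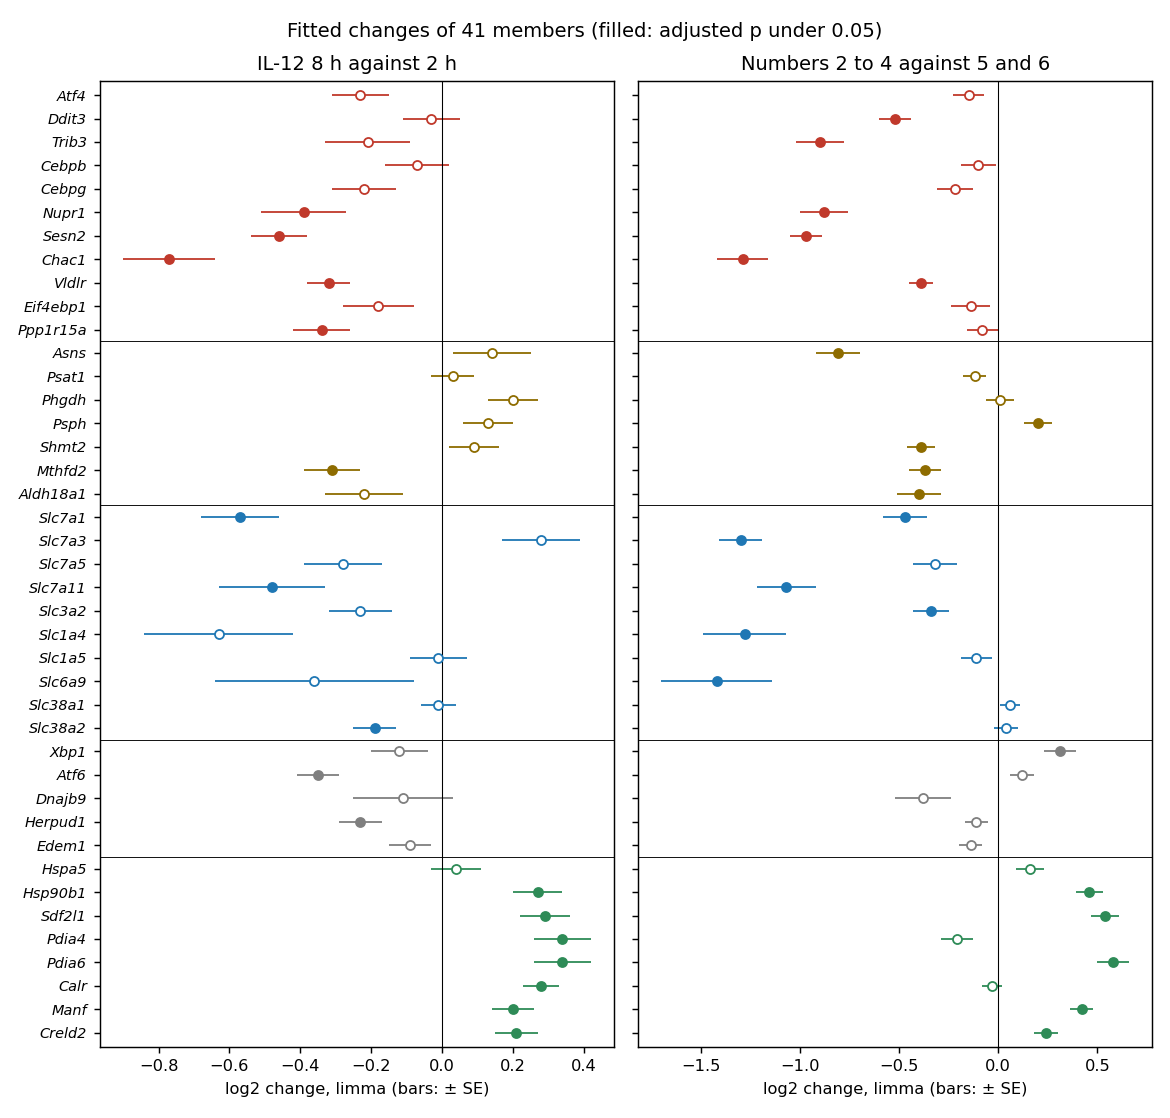
Fitted log2 changes of the 41 genes with bars of ± 1 SE, for IL-12 8 h against 2 h on the left and for arrays 2 to 4 against 5 and 6 on the right; the axes differ in range, colours mark roles, and filled points passed an adjusted p of 0.05 in limma. Of the chaperones, 7 of 8 are filled to the right of 0 on the left side, and most regulators and transporters are to the left of 0 on the right side, down to -1.42 for Slc6a9.

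Other genes of the pathway, outside the chosen set, were read in 7 lists, beside the 11.8% of all genes that were higher on arrays 2 to 4 and the 12.5% that were lower. Among 11 further ATF4 targets, 0 were higher and 5 lower, including Stc2, a secreted stress glycoprotein, at -0.96 ± 0.07 (SE; limma adjusted p = 1.77e-06), Gpt2, an alanine transaminase, at -0.81 ± 0.11 (adjusted p = 0.000165), and Bcat1, a branched-chain transaminase, at -0.66 ± 0.10 (adjusted p = 0.000363). Of 16 aminoacyl-tRNA synthetases, which charge tRNAs with amino acids, 4 were lower and 1 higher, with Iars at -0.67 ± 0.09 (adjusted p = 9.79e-05) and Hars at 0.41 ± 0.06 (adjusted p = 0.000324). Of 15 further ER folding genes, 5 were higher and 0 lower, with Sec61b, a subunit of the translocation channel, at 0.61 ± 0.07 (adjusted p = 2.61e-05).

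The other 4 lists went in both directions or down. Of 12 eIF2 kinases and regulators, 4 were higher and 1 lower, with Eif2ak2, the kinase PKR, at 0.54 ± 0.10 (SE; limma adjusted p = 0.00119). Of 9 one-carbon genes, 2 were higher and 4 lower, with Mtr, the methionine synthase, at -0.46 ± 0.07 (adjusted p = 0.000447). Of 13 further genes for sensing and degrading unfolded protein, 2 were higher and 3 lower, with Derl2, a factor of ER-associated degradation, at 0.43 ± 0.06 (adjusted p = 0.000119). Of 12 further amino acid transporters, 0 were higher and 5 lower, with Slc7a8, the neutral amino acid transporter LAT2, at -0.80 ± 0.08 (adjusted p = 1.01e-05).

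In the time course, Atf3, a stress-induced repressor that ATF4 activates, fell far more than any gene of the set. Its change from 2 h to 8 h was -2.06 ± 0.16 (SE; limma adjusted p = 1.86e-06), made of differences of -1.45 in the run 5 and 6 and -2.57 in the run 2 to 4, and the runs differed by -1.12 ± 0.10 (adjusted p = 0.00015). Ddit4, an inhibitor of mTORC1, rose by 0.48 ± 0.11 (adjusted p = 0.0101), with differences of 0.14 in the run 5 and 6 and 0.76 in the run 2 to 4. Of the other lists, beside 6.27% of all genes higher and 6.36% lower, 2 of 16 tRNA synthetases were higher and 0 lower. One-carbon genes gave 1 higher and 0 lower of 9, eIF2 regulators 2 and 1 of 12, sensing and degradation genes 3 and 1 of 13, and further transporters 2 and 3 of 12. Slc38a9, a lysosomal arginine sensor, rose by 0.39 ± 0.06 (SE; limma adjusted p = 0.000606), with 0.37 and 0.41 within the runs.

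The interaction was called for 0.972% of all genes in the higher and 0.987% in the lower direction. It was called lower for 4 of the 11 further ATF4 targets, among them Atf3, Cth and Gpt2, for 2 of 16 tRNA synthetases, Cars and Yars, and for 1 of 9 one-carbon genes, Aldh1l2. It was called higher for 2 of 12 further transporters, Slc43a2 at 1.03 ± 0.13 (SE; limma adjusted p = 0.00165) and Slc36a4 at 0.71 ± 0.13 (adjusted p = 0.0142), and for 1 of 12 eIF2 regulators, Eif2ak3, the ER stress kinase PERK, at 0.55 ± 0.13 (adjusted p = 0.0468). In limma 0 of 15 folding genes and 0 of 13 sensing and degradation genes were called, with 3 in each list at an unadjusted p under 0.05.

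Between untreated cells at 2 h and the baseline array, 8 of 41 genes were higher in untreated cells and 5 lower, against 6.28% and 3.96% of all genes. By role, 4 of 11 regulators were higher and 1 lower, 3 of 10 transporters and 1 of 5 unfolded protein response factors were higher, 0 of 7 synthesis enzymes were called, and 4 of 8 chaperones were lower. Higher were Sesn2 at 1.49 ± 0.15 (SE; limma adjusted p = 3.03e-05), Chac1 at 1.38 ± 0.23 (adjusted p = 0.00173), and Slc7a11, Nupr1, Slc7a3, Slc7a1, Ddit3 and Herpud1 at 0.47 to 1.18. Lower were Sdf2l1 at -0.97 ± 0.13 (adjusted p = 0.000291), Vldlr at -0.89 ± 0.12 (adjusted p = 0.000316), Hsp90b1, Pdia6 and Manf.

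The baseline array lay below every other array numbered 5 to 8 at 21 of the 41 genes (51.2%, against 19.8% of all genes) and above them at 9 (22.0%, against 28.7%). It is 1 array whose spread is taken from the other groups. With no run term 0 of the genes were called, and with a separate mean for each group and run 15 were higher and 8 lower, against 7.69% and 5.09% of all genes. Its marker values, given above, were higher than those of arrays 5 to 8 for B cell, plasma cell and erythroid and platelet genes and lower for macrophage genes, and their part in the difference was not tested.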

How the data were processed

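Linear intensity values of 24922 probe sets on 12 arrays were deposited, made by the authors with RMA and Affymetrix Power Tools per the submitters' processing notes, which give no version. RMA equalises distributions between arrays, so a change shared by most genes would not show. Array medians lay between 160.6 and 167.3. For genome build and probe annotation, nothing is stated in the labels or file headers. Values were log2-transformed, without further normalization. The 21425 probe sets with 1 platform symbol were kept, with the brightest standing for each of 19752 genes. Dim genes stayed in the fit. The median log2 intensity over genes and arrays was 7.369, and the 25th percentile of the gene means was 6.024. Slc7a11, Slc1a4 and Nupr1 lay below that median on the 8 h arrays 2 and 3.

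limma 3.58.1 in R 4.3.3 (lmFit, eBayes) fitted 4 group means and a term for the title-number run to all 12 arrays, and time by run to the 9 IL-12 arrays. Tests were two-sided, with Benjamini-Hochberg adjustment over all genes and a threshold of 0.05. Values within a run with an SE come from a fit with a separate mean for each group and run, added after seeing the data. The fit of group means and run and the fit of time by run were tested on simulated data with independent arrays. The fit with separate means was not tested in that way. Python 3.11.15 and matplotlib 3.10.9 drew the figures.

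The genes, lists and tests were chosen with earlier results of these data known. Values on every array are given for Atf4, Ddit3, Trib3, Asns, Chac1, Slc7a11, Hspa5 and Xbp1 and for up to 8 called genes with the smallest p in each comparison; genes named from the wider lists are among the 3 with the smallest p in their list and comparison. Marker lists of dendritic cells, neutrophils, CD8 T cells and NK cells were read too: of 6, 6, 2 and 5 measured genes, 1, 1, 1 and 4 were lower on arrays 2 to 4 and 1, 2, 0 and 1 higher. Same-numbered IL-12 arrays deviated together from their group means (r across genes of 0.365, 0.300, 0.519 and 0.372 for numbers 2, 3, 5 and 6), but not within group and run (-0.264 to 0.0255). The fit with the number as a block, which holds only the IL-12 arrays 2, 3, 5 and 6, is given beside the result it changes.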

Additional observations from a re-analysis of the deposited data

Results flagged for a closer look

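The change from 2 h to 8 h of IL-12 differed between arrays 2 to 4 and arrays 5 and 6 for 15 of the 41 genes. This was by the interaction term in limma, which was called for 1.96% of all genes. The differences in log2 change were -2.04 for Slc6a9, -1.53 for Slc1a4, -0.85 for Slc7a11, -0.80 for Chac1, -0.77 for Trib3 and for Nupr1, -0.76 for Slc7a3, -0.75 for Asns and -0.74 for Slc7a5. They were -0.66 for Aldh18a1, -0.62 for Slc7a1, -0.55 for Slc3a2, -0.52 for Cebpb and -0.45 for Ddit3, and 0.75 for Dnajb9. With 1 array left out, 8 of the 15 calls were lost in at least 1 case, among them Chac1 without the 8 h array 2.

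Ppp1r15a read 8.02 on the 8 h array 2, away from 7.86, 7.86 and 7.87 on the others of that group. This was the 1 array to stand apart by Dixon's test among 82 groups of values, where chance alone gives about 1 in 20.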

How the results depend on the processing

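Without a run term, the calls among the 41 genes were 1 (8 h against untreated), 3 (8 h against 2 h) and 0 (untreated against baseline), and over all genes 9 (2 h against untreated), 243, 871 and 115. With arrays 5 to 8 only, the set gave 4 calls for 8 h against untreated and 4 for 8 h against 2 h, and all genes 320 and 363, with 1 for 2 h against untreated. Arrays 2 to 4 only gave 28 calls in the set for 8 h against 2 h. There the count over all genes stayed within 1.5 times of the 2496 calls of the fit over both runs. With the title number as a replicate block, on the IL-12 arrays 2, 3, 5 and 6 only, 8 h against 2 h gave 7 and 1246 calls. The comparisons with untreated cells could not be blocked, since those arrays share no number with another group. The macrophage marker mean as a covariate left 0 and 89 calls (8 h against untreated), 6 and 1283 (8 h against 2 h), 1 and 51 (untreated against baseline), 0 and 1 (between runs), 4 genes at 2 h and 718 for the interaction. An offset of 50 gave 9 genes at 2 h. Separate means per group and run gave 5 calls in the set (842 of all genes) for 8 h against untreated. They gave 6 (1108) for 8 h against 2 h in arrays 5 and 6, 23 (2523) for untreated against baseline, and 2276 genes between runs at 8 h. Nupr1, lower at 8 h in the fit over both runs, was 0.03 higher in arrays 5 and 6 in both fits of that run (adjusted p = 0.948 and 0.914). Leaving out 1 array gave, in the set and over all genes, 0 to 0 and 2 to 14 calls (2 h against untreated), 0 to 2 and 267 to 663 (8 h against untreated), 8 to 19 and 1525 to 2536 (8 h against 2 h), 11 to 17 and 1464 to 2222 (untreated against baseline), 21 to 25 and 3710 to 4905 (between runs) and 8 to 15 and 136 to 561 (interaction). Averaging probe sets, quantile normalization again, a trended robust eBayes and dropping the dimmest genes moved no count by over 1.5 times. The cause of these shifts was not tested. The number of arrays limits precision most for the single baseline array.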

Other observations

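Within the run 5 to 8, the difference between the arrays of a pair resembled that of another pair. Across the 41 genes, array 6 minus array 5 at 2 h of IL-12 and array 8 minus array 7 of the untreated cells correlated at r = 0.862, with the same sign for 33 genes; over all genes r was 0.558. The same IL-12 2 h difference and that between the 8 h arrays gave r = 0.119 (0.025 over all genes). Genes share their arrays and are not independent replicates. Cebpg, a C/EBP partner of ATF4, differed by 0.36 and 0.41 in the 2 h pairs and by 0.10 in the 8 h pair. Dnajb9 differed by 0.35, 0.55 and 0.00, Hspa5 by 0.23, 0.29 and 0.09, and Sesn2 by -0.39, -0.19 and 0.03. No label links array 5 to array 7 or array 6 to array 8.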
